A study of Homo sapiens with 9 samples.

Results

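Neurotransmitter receptor subunits were examined in TC-32, a human Ewing sarcoma cell line, as the genes whose symbols belong to the ionotropic and metabotropic glutamate, GABA-A, GABA-B, glycine, nicotinic, muscarinic and serotonin receptor families. The symbol rule took 90 of the 58381 genes in the deposited table, and 36 of these 90 passed the filter on low counts. The filter keeps a gene that reaches about 0.221 CPM (read counts scaled to the library's total) in at least 3 of the 9 libraries, the size of a group. A gene may therefore enter through 1 group alone. The CPM values of genes given below also use TMM scaling between libraries.

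RNA-seq libraries were compared in groups of 3, all from TC-32 cells that keep the EWSR1::FLI1 fusion oncoprotein. The RFP cells carried the lentiviral pLOC vector with a red fluorescent protein. The ETS1-Low and ETS1-High cells carried pLOC with a synthetic human cDNA of ETS1, a transcription factor of the ETS family, and were picked for lower and higher ETS1 expression. The design text sets the ETS1 level of the ETS1-High cells beside that of cells depleted of EWSR1::FLI1, and the study asked what ETS1 does to gene expression while the fusion is present. Transduced cells were selected with puromycin and sorted as single cells, and the number of clones per group, and whether the RFP cells were 1 clone, are not given in the sources used here. A property of a clone and the ETS1 level therefore cannot be told apart. Nothing in the labels says that the libraries of a group came from separate cultures, so the p-values measure the spread between these libraries, which may be technical. The RFP libraries serve as the control of both ETS1 groups.

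Library totals ranged from 39484704 to 46654734 expected counts, and the receptor subunits took 0.0340% to 0.0471% of each. ETS1 itself stood at 2.00 ± 0.174 CPM in RFP, 10.6 ± 0.298 in ETS1-Low and 19.1 ± 0.806 in ETS1-High (mean ± SD, n = 3), the order that the labels give. All 12 Ewing sarcoma genes on a marker list reached 1 CPM in RFP, against 10 in ETS1-Low and 11 in ETS1-High. Of 10 neuron markers, 6 reached 1 CPM in RFP and 4 in each ETS1 group, with summed levels of 77.4 to 81.0, 32.1 to 33.7 and 34.0 to 36.7 CPM in the RFP, ETS1-Low and ETS1-High groups, while RBFOX3, ELAVL4 and STMN2 were at or below 0.055 CPM in every group mean. Of 6 glial markers 1 reached 1 CPM, in ETS1-Low only (MBP, 1.22 CPM), and the list summed to 0.328 to 0.374, 1.18 to 1.32 and 0.127 to 0.267 CPM in the same order. The 6 skeletal muscle markers summed to 2.47 to 3.70 CPM over all libraries, with MYF5 at 0 throughout. Of 6 fibroblast markers 3 reached 1 CPM in each group, with sums of 272 to 303, 388 to 394 and 515 to 552 CPM, and of 4 epithelial markers 2, with sums of 78.1 to 82.5, 156 to 165 and 110 to 112. A few genes carried these sums. Among the neuron markers TUBB3 went from 55.6 to 8.93 and 18.1 CPM in the same order, and MAP2 from 5.11 to 0.0968 and 0.116. SNAP25 stood at 7.76, 6.11 and 8.33 CPM, while NEFL went from 6.23 to 15.8 and 6.22. Among the fibroblast markers COL3A1 went from 176 to 342 and 450 CPM, while PDGFRB went from 74.2 to 20.5 and 26.0, and KRT18 made up most of the epithelial sum. The part of these markers in the receptor results was not tested. In bulk RNA, fewer cells of a type and less RNA per cell cannot be told apart.

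Neurotransmitter receptors turn a released transmitter into a change in membrane current or in a second messenger. Ionotropic glutamate receptors are channels built from subunits of the AMPA, kainate, delta and NMDA classes, and GABA-A, glycine and nicotinic acetylcholine receptors belong to a common family of pentameric channels; the metabotropic glutamate, GABA-B, muscarinic and most serotonin receptors signal through G proteins. They are best known from synapses and from the muscle endplate.

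Most tested subunits differed between groups, in both directions, and GRIK5, GRM2, GABRQ and CHRNE rose in both ETS1 groups while GRIA4, GRIN2D, GABRB2 and CHRNA9 fell in both. In ETS1-High against RFP, 30 of 36 tested subunits passed an adjusted p of 0.05, 14 higher and 16 lower, where 74.2% of all 17235 genes tested passed (37.0% higher and 37.2% lower). At a fold of 2 or more, 23 of the 36 passed (9 higher and 14 lower), against 21.0% of all genes (9.64% higher and 11.4% lower). In ETS1-Low against RFP, 30 of 36 passed, 12 higher and 18 lower, against 74.1% of all genes (37.9% higher and 36.2% lower), and 23 passed at 2-fold (8 higher and 15 lower), against 20.6% (8.47% and 12.2%). In ETS1-High against ETS1-Low, 24 of 36 passed, 15 higher and 9 lower, against 59.2% of all genes (29.9% and 29.3%), and 16 passed at 2-fold (12 higher and 4 lower), against 9.74% (6.05% and 3.69%). The share that passed at any fold was therefore close to that of all genes, and the share that passed at 2-fold was above it.

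The filter bears on these counts, because a subunit that entered through 1 group tends to be lower in the others. Of the 36 tested subunits, 14 reached the filter's level in all libraries of exactly 1 group (11 in RFP, 1 in ETS1-Low and 2 in ETS1-High), 6 in 2 groups and 16 in all 3. Among those 16, 14 passed in ETS1-High against RFP (9 higher and 5 lower) and 10 did so at 2-fold, where 76.7% and 14.2% of the 14405 genes that reached the level in every library passed. In ETS1-Low against RFP, 14 of the 16 passed (9 higher and 5 lower), 8 of them at 2-fold, against 77.0% and 13.7%. In ETS1-High against ETS1-Low, 11 of the 16 passed (4 higher and 7 lower), 3 of them at 2-fold, against 64.1% and 5.70%. The balance over all 36 tested, with more lower calls in ETS1-Low against RFP and more higher calls between the ETS1 groups, was therefore the reverse of that among the 16. The median log2 fold change over the 36 was -0.00 in ETS1-High against RFP and -0.38 in ETS1-Low against RFP, beside -0.01 and 0.01 over all genes tested, and between the ETS1 groups it was 0.36, or 0.27 with subunits at 0 in a group set at their bound, beside -0.00 over all genes.

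The 54 subunits that did not pass held at most 21 counts in any library. Of them, 16 had no count in any library: GRM5, GRM6, GABRA6, GABRG3, GABRR3, CHRNA2, CHRNA4, CHRNB3, CHRNG, HTR1B, HTR1E, HTR1F, HTR2A, HTR3D, HTR3E and HTR4. By family, 7 of 11 AMPA, kainate and delta subunits passed the filter, 5 of 7 NMDA subunits, 3 of 8 metabotropic glutamate receptors, 9 of 19 GABA-A subunits, 1 of 2 GABA-B subunits, 7 of 16 nicotinic subunits, 1 of 5 muscarinic receptors, 1 of 5 glycine receptor subunits and 2 of 17 serotonin receptors. The TC-32 repertoire was thus a subset of each family, and 21 subunits reached a mean of 1 CPM in at least 1 group. These 21 are described one by one. GLRA4, which the symbol rule counts among the glycine receptor subunits, is annotated as a transcribed pseudogene and did not pass the filter.

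**Figure D1:**
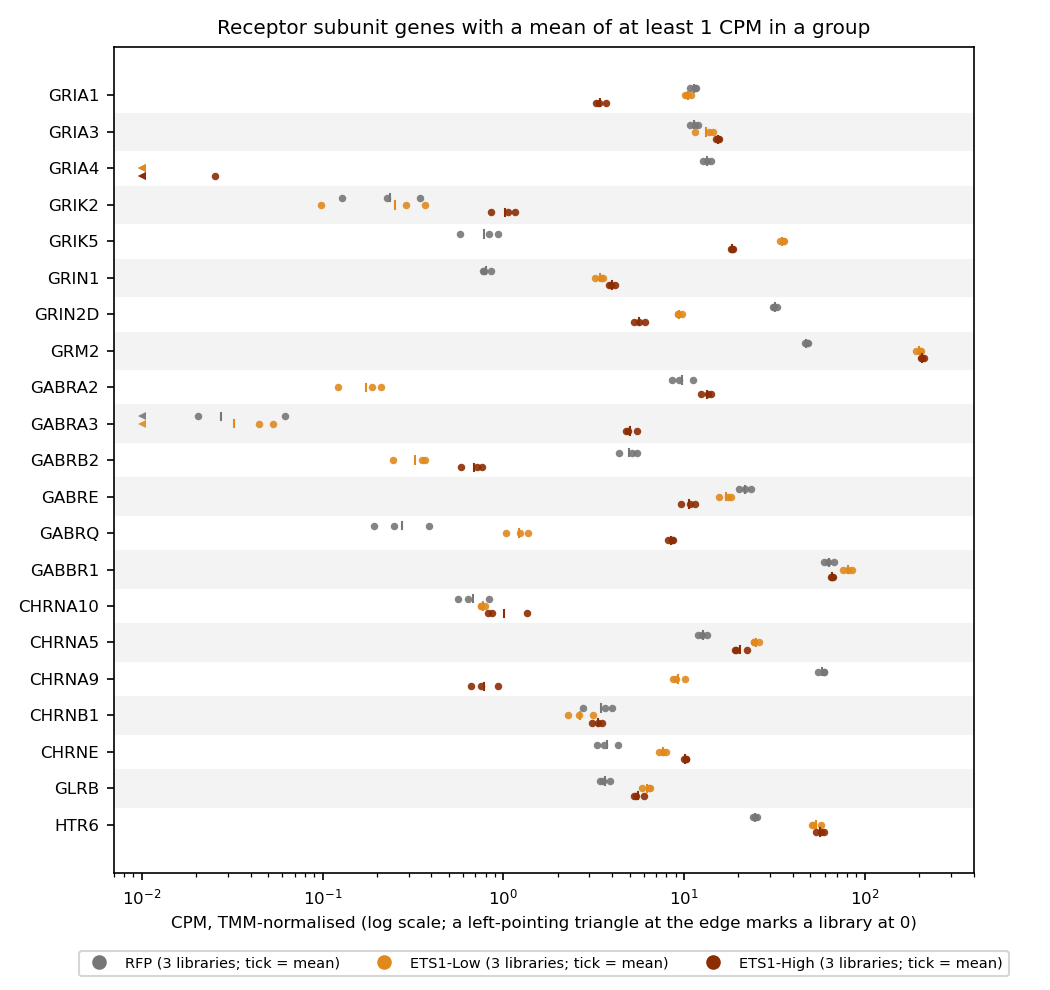
CPM of the 21 receptor subunits with a mean of at least 1 CPM in some group, on a log axis, with 1 point per library coloured by group; a triangle marks a library at 0. GRIA4 and GABRA3 have groups at or near 0, and GRIK5, CHRNA9 and GABRA2 lie in separate bands by group.

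Sequence upstream of the transcription start is shown for the subunits with the largest differences between groups among those with a mean of at least 10 CPM, since ETS factors recognise a GGAA core in DNA. GRIA4, CHRNA9, GRIK5, GRIN2D and GRM2 are printed from RefSeq (GRCh38.p14), 5′ to 3′ on the strand of the gene, each as the stretch of the 250 bases before the start that lies in no annotated exon; capitals mark GGAA or its reverse complement TTCC. GABRA2 also met the rule, but its 250 bases lie wholly within an annotated exon. The windows are chr11:105610456-105610671 (plus strand) for GRIA4, chr4:40335083-40335332 (plus) for CHRNA9, chr19:42070207-42070365 (minus) for GRIK5, chr19:48393418-48393667 (plus) for GRIN2D and chr3:51706818-51707067 (plus) for GRM2. The starts are those of RefSeq. The GRIA4 window lies inside the GENCODE span given for that gene below, downstream of its start at 105609535.
GRIA4: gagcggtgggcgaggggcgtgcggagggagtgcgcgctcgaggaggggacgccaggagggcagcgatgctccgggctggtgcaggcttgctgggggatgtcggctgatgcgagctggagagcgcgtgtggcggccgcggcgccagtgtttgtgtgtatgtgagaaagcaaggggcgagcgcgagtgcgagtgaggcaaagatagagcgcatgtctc
CHRNA9: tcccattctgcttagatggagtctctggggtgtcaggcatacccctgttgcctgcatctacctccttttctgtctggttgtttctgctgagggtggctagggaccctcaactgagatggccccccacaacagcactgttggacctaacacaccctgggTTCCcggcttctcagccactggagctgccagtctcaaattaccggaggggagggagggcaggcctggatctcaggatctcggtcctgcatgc
GRIK5: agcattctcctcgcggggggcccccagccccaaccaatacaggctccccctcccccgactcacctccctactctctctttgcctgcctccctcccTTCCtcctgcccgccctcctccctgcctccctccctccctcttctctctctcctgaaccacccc
GRIN2D: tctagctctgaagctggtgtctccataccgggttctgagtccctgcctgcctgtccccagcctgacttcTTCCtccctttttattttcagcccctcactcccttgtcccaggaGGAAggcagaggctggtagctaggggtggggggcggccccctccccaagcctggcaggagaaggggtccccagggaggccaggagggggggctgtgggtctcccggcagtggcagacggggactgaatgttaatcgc
GRM2: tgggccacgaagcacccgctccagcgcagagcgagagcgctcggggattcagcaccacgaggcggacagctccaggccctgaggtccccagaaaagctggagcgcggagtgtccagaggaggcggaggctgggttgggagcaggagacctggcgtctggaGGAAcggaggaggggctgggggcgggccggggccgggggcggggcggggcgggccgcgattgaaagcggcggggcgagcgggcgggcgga
The stretch shown holds no GGAA core in GRIA4, 1 in CHRNA9, 1 in GRIK5, 2 in GRIN2D and 1 in GRM2. Over the whole 250 bases, searched on both strands, GGAA was present in 92.8% of 27305 RefSeq promoters of that length, and in 16 of the 17 named subunits that matched the table. The longer letters GGAAGGAA and CCGGAAG, which both contain GGAA, were present in 2.99% and 8.82% of all promoters and in 0 of the 17. A match is only a run of letters, and the lack of one says only that these letters are not in this window.

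Among AMPA-class subunits, which carry most fast excitatory current, GRIA4 was nearly gone in both ETS1 groups, GRIA1 fell in ETS1-High, and GRIA3 rose slightly. GRIA4 (GluA4; chromosome 11, 105609535 to 105982090, GRCh38) stood at 14.2, 13.5 and 12.8 CPM in the RFP libraries and at 0 in each ETS1-Low library; in ETS1-High, 1 library held 1 count (0.0254 CPM) and the others none. RFP lay far above both ETS1 groups. Against a floor of 3 counts per library, GRIA4 was at least 185-fold lower in ETS1-Low than in RFP (edgeR adjusted p = 5.66e-36), and the pooled ratio of RFP to ETS1-High was 1736 with a 95% counting interval of 311 to 68598 (edgeR adjusted p = 3.74e-36).

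GRIA1 (GluA1; chromosome 5, 153489615 to 153813869) stood at 10.8, 11.6 and 11.6 CPM in RFP, 10.4, 10.2 and 10.9 in ETS1-Low and 3.40, 3.69 and 3.25 in ETS1-High. The ETS1-High libraries lay below all others, while RFP and ETS1-Low overlapped. The log2 fold change was -1.71 (SE 0.084; edgeR adjusted p = 2.75e-24) in ETS1-High against RFP and -0.11 (SE 0.072; edgeR adjusted p = 0.166) in ETS1-Low against RFP, and the 2 ETS1 groups differed by -1.60 (SE 0.086; edgeR adjusted p = 2.99e-22). GRIA3 (GluA3) stood at 10.8 to 11.9 CPM in RFP, 11.6 to 14.4 in ETS1-Low and 15.0 to 15.6 in ETS1-High. It rose by 0.43 on the log2 scale (SE 0.068; edgeR adjusted p = 2.02e-07) in ETS1-High and by 0.22 (SE 0.069; edgeR adjusted p = 0.00444) in ETS1-Low, where the libraries overlapped those of RFP. The ETS1-Low call was lost without ETS1-Low library 3 (edgeR adjusted p = 0.0665), and that between the 2 ETS1 groups (0.21, edgeR adjusted p = 0.00649) was lost without ETS1-Low library 1 (0.13, edgeR adjusted p = 0.128).

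Of the kainate receptor subunits, GRIK5 rose in both ETS1 groups and GRIK2 in ETS1-High. GRIK5 (GluK5, which forms channels only together with another kainate subunit; chromosome 19, 41998321 to 42070206) stood at 0.935, 0.832 and 0.574 CPM in RFP, 35.8, 35.3 and 34.1 in ETS1-Low and 18.4, 18.8 and 18.1 in ETS1-High. Each group lay apart from the others, with ETS1-Low highest. GRIK5 was 44.9-fold higher in ETS1-Low than in RFP (log2 fold change 5.49, SE 0.089; edgeR adjusted p = 4.24e-45) and 23.6-fold higher in ETS1-High (4.56, SE 0.095; edgeR adjusted p = 3.09e-40), and the ETS1 groups differed by -0.93 (SE 0.055; edgeR adjusted p = 1.64e-20).

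GRIK2 (GluK2, a subunit that can pair with GluK5) stood at 0.229, 0.128 and 0.348 CPM in RFP, 0.370, 0.289 and 0.0977 in ETS1-Low and 1.07, 1.16 and 0.851 in ETS1-High. The ETS1-High libraries lay above all others. GRIK2 rose by 2.10 on the log2 scale in ETS1-High against RFP (SE 0.34; edgeR adjusted p = 3.2e-07) and its log2 fold change in ETS1-Low was 0.09 (SE 0.42; edgeR adjusted p = 0.86). Of the 7 tested AMPA, kainate and delta subunits, 7 passed in ETS1-High against RFP (3 higher and 4 lower), 5 in ETS1-Low against RFP (2 and 3) and 4 between the ETS1 groups (2 and 2), beside 74.2%, 74.1% and 59.2% of all genes.

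NMDA receptors need the GRIN1 product, GluN1, beside a GluN2 subunit, and in these cells GRIN1 rose while GRIN2D, the most abundant GluN2 transcript, fell. GRIN1 (chromosome 9, 137138346 to 137168756) stood at 0.769, 0.853 and 0.779 CPM in RFP, 3.46, 3.56 and 3.22 in ETS1-Low and 3.86, 3.94 and 4.16 in ETS1-High. The 3 groups did not overlap. Its log2 fold change was 2.31 (SE 0.149; edgeR adjusted p = 1.63e-19) in ETS1-High and 2.09 (SE 0.152; edgeR adjusted p = 1.71e-17) in ETS1-Low against RFP, and 0.22 (SE 0.122; edgeR adjusted p = 0.113) between the ETS1 groups. GRIN2D (GluN2D; chromosome 19, 48393668 to 48444931) stood at 31.1, 31.6 and 32.6 CPM in RFP, 9.26, 9.72 and 9.25 in ETS1-Low and 5.28, 6.07 and 5.67 in ETS1-High. Each group lay apart, with ETS1-High lowest. GRIN2D fell by 2.48 on the log2 scale in ETS1-High (SE 0.064; edgeR adjusted p = 2.87e-36) and by 1.75 in ETS1-Low (SE 0.060; edgeR adjusted p = 6.5e-31), and the ETS1 groups differed by -0.73 (SE 0.073; edgeR adjusted p = 1.95e-12).

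Per transcript length, NMDA subunits summed to 7.42 ± 0.095 FPKM in RFP, 3.49 ± 0.366 in ETS1-Low and 2.97 ± 0.430 in ETS1-High (mean ± SD, n = 3). GRIN2D made up 89.9% to 93.1% of that sum in RFP and 46.5% to 60.8% in ETS1-Low, whereas in ETS1-High GRIN1 was the largest part, at 51.8% to 57.5%. The 3 other tested NMDA subunits were under 1 CPM. GRIN2A had means of 0.793, 0.048 and 0.212 CPM in the RFP, ETS1-Low and ETS1-High groups, and GRIN2B of 0.591, 0.034 and 0.118; the pooled ratios of RFP to ETS1-Low were 16.4 (95% counting interval 7.28 to 45.5) and 18.3 (6.89 to 68.7). GRIN2C, with means of 0.112, 0.851 and 0.268 CPM, rose instead, by 2.90 on the log2 scale in ETS1-Low (edgeR adjusted p = 1.88e-09) and by 1.23 in ETS1-High (edgeR adjusted p = 0.0134).

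Of the metabotropic glutamate receptors only GRM2 reached 1 CPM. GRM2 encodes mGluR2, a Gi-coupled receptor that lowers glutamate release at presynaptic endings (chromosome 3, 51707068 to 51718613). It stood at 47.7, 48.3 and 46.8 CPM in RFP, 193, 204 and 202 in ETS1-Low and 206, 212 and 209 in ETS1-High. Both ETS1 groups lay above RFP and close to each other. The fold over RFP was 4.39 in ETS1-High (log2 fold change 2.13, SE 0.033; edgeR adjusted p = 4.01e-46) and 4.19 in ETS1-Low (2.07, SE 0.033; edgeR adjusted p = 2.06e-45), and the log2 fold change between the ETS1 groups was 0.06 (SE 0.030; edgeR adjusted p = 0.0582). That last p moved to between 0.0399 and 0.0439 when RFP library 1 or 2, ETS1-Low library 2 or ETS1-High library 1 was left out. The edgeR adjusted p was also 0.0257 with DESeq2 size factors, 0.0377 with 10 counts required in every library and 0.0433 with the 2 groups alone. DESeq2 gave an adjusted p of 0.0219. The difference did not pass in the remaining alternatives, among them upper-quartile scaling and FPKM values. GRM2 was the subunit with the highest FPKM in both ETS1 groups, at 59.2 ± 1.38 in ETS1-Low and 61.0 ± 2.12 in ETS1-High.

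GRM4 and GRM7, 2 further Gi-coupled receptors, passed the filter below 1 CPM. GRM4 had means of 0.411, 0.016 and 0.442 CPM in the RFP, ETS1-Low and ETS1-High groups, and GRM7 of 0.669, 0.033 and 0.380. The pooled ratio of RFP to ETS1-Low was 25.4 (95% counting interval 6.72 to 215) for GRM4 and 20.7 (7.81 to 77.3) for GRM7, and that of ETS1-High to ETS1-Low was 27.3 (7.23 to 231) and 11.8 (4.31 to 44.8). Both had their lowest level in ETS1-Low.

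GABA-A receptors, the chloride channels of fast inhibition, showed the widest contrasts between the 2 ETS1 groups. GABRA2 (the alpha2 subunit; chromosome 4, 46243548 to 46475230) stood at 8.60, 9.35 and 11.2 CPM in RFP, 0.212, 0.189 and 0.122 in ETS1-Low and 13.6, 12.5 and 14.1 in ETS1-High. The groups did not overlap, with ETS1-Low far below both others. GABRA2 shares exon sequence with a long noncoding RNA gene on the same strand, so reads between them are uncertain. It also overlaps another such gene on the opposite strand. GABRA2 was 56.3-fold lower in ETS1-Low than in RFP (log2 fold change -5.82, SE 0.171; edgeR adjusted p = 3.46e-32) and, in ETS1-High, 77.5-fold above ETS1-Low (6.28, SE 0.163; edgeR adjusted p = 1e-33), while ETS1-High exceeded RFP by 0.46 (SE 0.079; edgeR adjusted p = 1.44e-06), a call lost on FPKM values (limma adjusted p = 0.0533 with a pseudocount of 1).

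GABRA3 (the alpha3 subunit; chromosome X, 152166234 to 152451315) held 0 to 3 counts in the RFP libraries and 0 to 2 in the ETS1-Low libraries, but 187 to 247 in ETS1-High, or 4.75, 5.49 and 4.88 CPM. The pooled ratio of ETS1-High to RFP was 182 (95% counting interval 70.6 to 669; edgeR adjusted p = 8.95e-27) and that of ETS1-High to ETS1-Low 156 (60.8 to 576; edgeR adjusted p = 2.05e-25). RFP and ETS1-Low were both at or under the floor of 3 counts, so no fold is given between them.

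GABRQ, the theta subunit gene (chromosome X, 152637895 to 152657542), rose in steps, from 0.249, 0.192 and 0.389 CPM in RFP to 1.03, 1.38 and 1.25 in ETS1-Low and 8.18, 8.63 and 8.71 in ETS1-High. The groups did not overlap. It was 4.37-fold higher than RFP in ETS1-Low (log2 fold change 2.13, SE 0.227; edgeR adjusted p = 7.22e-12) and 30.3-fold higher in ETS1-High (4.92, SE 0.166; edgeR adjusted p = 4.66e-31), with 2.79 between the ETS1 groups (SE 0.132; edgeR adjusted p = 2.14e-24). GABRE, the epsilon subunit gene of the same cluster, fell in steps, from 20.3, 23.4 and 21.8 CPM in RFP to 15.6, 18.1 and 17.5 in ETS1-Low and 10.8, 9.63 and 11.5 in ETS1-High. Its groups did not overlap either, and the log2 fold change was -1.04 (SE 0.067; edgeR adjusted p = 3.16e-17) in ETS1-High and -0.35 (SE 0.064; edgeR adjusted p = 4.8e-06) in ETS1-Low. GABRB2, for the beta2 subunit common to many synaptic GABA-A receptors, stood at 4.36, 5.46 and 5.14 CPM in RFP, 0.370, 0.356 and 0.244 in ETS1-Low and 0.584, 0.712 and 0.761 in ETS1-High. It fell by 3.94 on the log2 scale in ETS1-Low (SE 0.192; edgeR adjusted p = 2.75e-24) and by 2.85 in ETS1-High (SE 0.166; edgeR adjusted p = 3.07e-21), and ETS1-High was above ETS1-Low by 1.09 (SE 0.262; edgeR adjusted p = 0.000359), or by 0.56 on FPKM with a pseudocount of 0.1 (limma adjusted p = 0.103).

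Of the 9 tested GABA-A subunits, 8 passed in ETS1-High against RFP (3 higher and 5 lower), 7 in ETS1-Low against RFP (1 higher and 6 lower) and 8 between the ETS1 groups (7 higher and 1 lower in ETS1-High), or 88.9%, 77.8% and 88.9%, beside 74.2%, 74.1% and 59.2% of all genes. The single subunit that was higher in ETS1-Low than in RFP was GABRQ, and the single one lower in ETS1-High than in ETS1-Low was GABRE. Among those under 1 CPM, GABRB1 had means of 0.717, 0 and 0.071 CPM in the RFP, ETS1-Low and ETS1-High groups and was at least 9.85-fold lower in ETS1-Low than in RFP. Summed over the family, GABA-A subunits stood at 13.5 ± 1.25 FPKM in RFP, 5.76 ± 0.663 in ETS1-Low and 11.2 ± 0.256 in ETS1-High. GABRE was the largest part in RFP (51.6% to 59.2%) and ETS1-Low (87.9% to 91.1%), and GABRA2 in ETS1-High (34.4% to 38.8%).

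**Figure D2:**
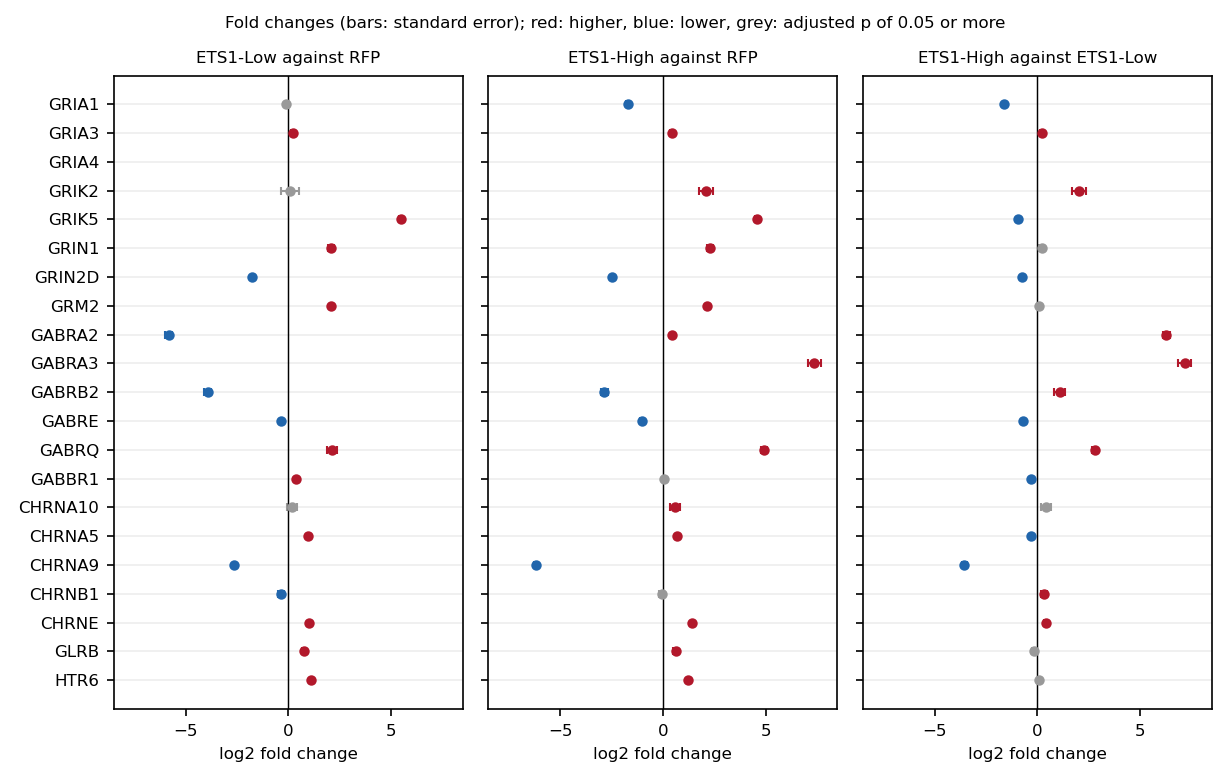
Log2 fold change ± SE from edgeR for the named subunits in the 3 comparisons, 1 panel each, with a line at 0. GRIA4 is left out of all 3 panels, as ETS1-Low is at 0 and ETS1-High holds 1 count. GABRA3 is not drawn in ETS1-Low against RFP. GABRA2 sits at -5.82 in ETS1-Low against RFP and at 0.46 in ETS1-High against RFP. CHRNA9 is lower than RFP in both ETS1 groups.

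The GABA-B receptor works as a pair of GABBR1 and GABBR2 products, of which GABBR1 binds GABA and GABBR2 couples to the G protein. GABBR1 stood at 59.7, 67.7 and 62.8 CPM in RFP, 75.9, 85.4 and 80.4 in ETS1-Low and 66.3, 64.8 and 66.4 in ETS1-High. ETS1-Low lay above both others, which overlapped. The log2 fold change was 0.35 in ETS1-Low against RFP (SE 0.041; edgeR adjusted p = 1.47e-08), a call lost on FPKM values (0.16 with a pseudocount of 1, limma adjusted p = 0.0934), and 0.05 in ETS1-High against RFP (SE 0.042; edgeR adjusted p = 0.243), where leaving out RFP library 2 gave 0.10 (edgeR adjusted p = 0.0209). GABBR1 shares exon sequence with UBD on the same strand. GABBR2 held at most 10 counts in an RFP library and none in either ETS1 group, and was not tested. GLRB, the beta subunit that ties glycine receptors to gephyrin, stood at 3.45, 3.56 and 3.89 CPM in RFP, 5.85, 6.38 and 6.52 in ETS1-Low and 5.43, 5.29 and 5.98 in ETS1-High. Both ETS1 groups lay above RFP, by log2 fold changes of 0.78 (SE 0.098; edgeR adjusted p = 6.52e-10) and 0.62 (SE 0.099; edgeR adjusted p = 2.61e-07), and no glycine receptor alpha subunit passed the filter.

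Among nicotinic subunits CHRNA9 showed the largest fall. CHRNA9 (the alpha9 subunit, known from the cholinergic input to cochlear hair cells; chromosome 4, 40335333 to 40355217) stood at 59.4, 59.7 and 55.4 CPM in RFP, 8.65, 9.07 and 10.1 in ETS1-Low and 0.660, 0.756 and 0.940 in ETS1-High. The groups did not overlap, and the order was the reverse of that of ETS1. CHRNA9 was 6.26-fold lower than RFP in ETS1-Low (log2 fold change -2.65, SE 0.055; edgeR adjusted p = 4.83e-40), 73.3-fold lower in ETS1-High (-6.20, SE 0.084; edgeR adjusted p = 2.09e-48) and 11.7-fold lower in ETS1-High than in ETS1-Low (-3.55, SE 0.111; edgeR adjusted p = 6.57e-32). It had the highest FPKM of all subunits in RFP, at 45.5 ± 3.5, against 6.13 in ETS1-Low and 0.66 in ETS1-High.

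CHRNA10, whose product joins alpha9 in hair cells, was measured far lower, at 0.561, 0.832 and 0.635 CPM in RFP, 0.793, 0.756 and 0.757 in ETS1-Low and 0.863, 1.35 and 0.828 in ETS1-High. The RFP libraries overlapped those of both ETS1 groups. Its log2 fold change in ETS1-High against RFP was 0.59 (SE 0.245; edgeR adjusted p = 0.0269), a call lost without RFP library 1 (0.48, adjusted p = 0.116), RFP library 3 (0.55, adjusted p = 0.0762) or ETS1-High library 2 (0.33, adjusted p = 0.286), all in edgeR, and in DESeq2 (adjusted p = 0.0811). CHRNA10 shares exon sequence with NUP98 on the same strand, so reads between them are uncertain.

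CHRNA5, an accessory subunit of neuronal receptors, stood at 12.6, 13.5 and 11.9 CPM in RFP, 26.0, 24.5 and 24.3 in ETS1-Low and 19.5, 22.2 and 19.1 in ETS1-High. The groups did not overlap, with ETS1-Low highest, and the log2 fold change over RFP was 0.98 in ETS1-Low (SE 0.059; edgeR adjusted p = 2.92e-20) and 0.68 in ETS1-High (SE 0.060; edgeR adjusted p = 2.17e-14). CHRNA3 and CHRNB4, its neighbours on chromosome 15, had means of at most 0.014 and 0.066 CPM and were not tested, and CHRNA3 overlaps an exon of CHRNA5 on the opposite strand.

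CHRNE and CHRNB1 belong to the receptor of the muscle endplate. CHRNE, the adult epsilon subunit gene (chromosome 17, 4897771 to 4934438), stood at 3.62, 3.29 and 4.32 CPM in RFP, 7.25, 7.69 and 7.91 in ETS1-Low and 10.3, 10.01 and 10.2 in ETS1-High. The groups did not overlap, and the log2 fold change was 1.02 in ETS1-Low (SE 0.092; edgeR adjusted p = 2.81e-14), 1.44 in ETS1-High (SE 0.089; edgeR adjusted p = 3.13e-20) and 0.41 between the ETS1 groups (SE 0.082; edgeR adjusted p = 2.15e-05). CHRNE overlaps exons of MINK1, GP1BA and C17orf107 on the opposite strand, and whether reads were counted by strand is not given in the sources used here. CHRNB1, the beta1 subunit gene, stood at 2.76, 4.01 and 3.67 CPM in RFP, 2.27, 3.14 and 2.61 in ETS1-Low and 3.53, 3.11 and 3.36 in ETS1-High, with overlap between all pairs of groups. Its log2 fold change was -0.37 in ETS1-Low against RFP (SE 0.134; edgeR adjusted p = 0.0118), lost without RFP library 2 (adjusted p = 0.102) or ETS1-Low library 1 (adjusted p = 0.0937) in edgeR. In ETS1-High against ETS1-Low it was 0.31 (SE 0.137, edgeR adjusted p = 0.049), a call lost in edgeR without RFP library 3, ETS1-Low library 1 or 3, or ETS1-High library 1 or 3 (adjusted p from 0.0527 to 0.236). That call was also lost in edgeR with upper-quartile scaling (adjusted p = 0.0613) or no filter (adjusted p = 0.0513), and in DESeq2 (adjusted p = 0.103). On FPKM values the limma adjusted p was 0.157 with a pseudocount of 1 and 0.184 with 0.1. CHRNB1 shares exon sequence with a long noncoding RNA gene on the same strand.

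Of the 7 tested nicotinic subunits, 5 passed in ETS1-High against RFP (3 higher and 2 lower), 5 in ETS1-Low against RFP (2 and 3) and 4 between the ETS1 groups (2 and 2), or 71.4%, 71.4% and 57.1%, close to the 74.2%, 74.1% and 59.2% of all genes. CHRNA7, at means of 0.614, 0.317 and 0.331 CPM in the RFP, ETS1-Low and ETS1-High groups, had fractional expected counts in all 9 libraries and shares sequence with a near-identical copy, so its level is uncertain. The family summed to 59.2 ± 5.11 FPKM in RFP, 26.1 ± 0.639 in ETS1-Low and 21.0 ± 1.48 in ETS1-High. CHRNA9 made up 75.2% to 78.8% of the sum in RFP, and CHRNA5 was the largest part in ETS1-Low (48.7% to 53.9%) and ETS1-High (51.3% to 56.4%).

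Among serotonin receptors, HTR6 (a Gs-coupled receptor; chromosome 1, 19664875 to 19680966) made up at least 98.0% of the family's FPKM in every library. It stood at 24.0, 24.7 and 25.4 CPM in RFP, 51.4, 51.8 and 57.6 in ETS1-Low and 57.1, 59.9 and 53.6 in ETS1-High. Both ETS1 groups lay above RFP and overlapped each other. HTR6 rose by 1.20 on the log2 scale in ETS1-High (SE 0.046; edgeR adjusted p = 2.14e-23) and by 1.12 in ETS1-Low (SE 0.046; edgeR adjusted p = 2.95e-22), and the ETS1 groups differed by 0.09 (edgeR adjusted p = 0.0802), or by 0.14 without ETS1-Low library 3 (edgeR adjusted p = 0.00588) and 0.13 without ETS1-High library 3 (edgeR adjusted p = 0.0121). CHRM3, the one muscarinic receptor that passed the filter, had means of 0.735, 0.115 and 0.022 CPM in the RFP, ETS1-Low and ETS1-High groups, with a pooled ratio of RFP to ETS1-High of 31.7 (95% counting interval 10.6 to 156).

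Other tested subunits under 1 CPM included GRIA2, GRID1, GABRR2, CHRNB2 and HTR1D. GRIA2, whose product makes AMPA receptors impermeable to calcium, had means of 0.25, 0.056 and 0.088 CPM in the RFP, ETS1-Low and ETS1-High groups, and GRID1, a delta subunit gene, 0.354, 0.033 and 0.072. GABRR2 had 0.286, 0.216 and 0.117, CHRNB2 0.325, 0.209 and 0.358, and HTR1D 0.244, 0.497 and 0.312. GRIA2, GRID1 and GABRR2 had their highest mean in RFP.

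Set side by side per transcript length, the subunit order changed between groups. In RFP, CHRNA9 led, followed by GABBR1 at 30.1 FPKM, GRM2 at 15.3, HTR6 at 14.5, CHRNA5 at 7.70, GABRE at 7.37 and GRIN2D at 6.83. In ETS1-Low, GRM2 was followed by GABBR1 at 33.8, HTR6 at 28.6, CHRNA5 at 13.2 and GRIK5 at 11.8, and in ETS1-High by HTR6 at 31.0, GABBR1 at 27.9 and CHRNA5 at 11.5. The summed FPKM of all 90 subunits changed much less than its makeup, with 156.8 ± 9.36 in RFP, 181.2 ± 4.89 in ETS1-Low and 172.9 ± 3.65 in ETS1-High.

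**Figure D3:**
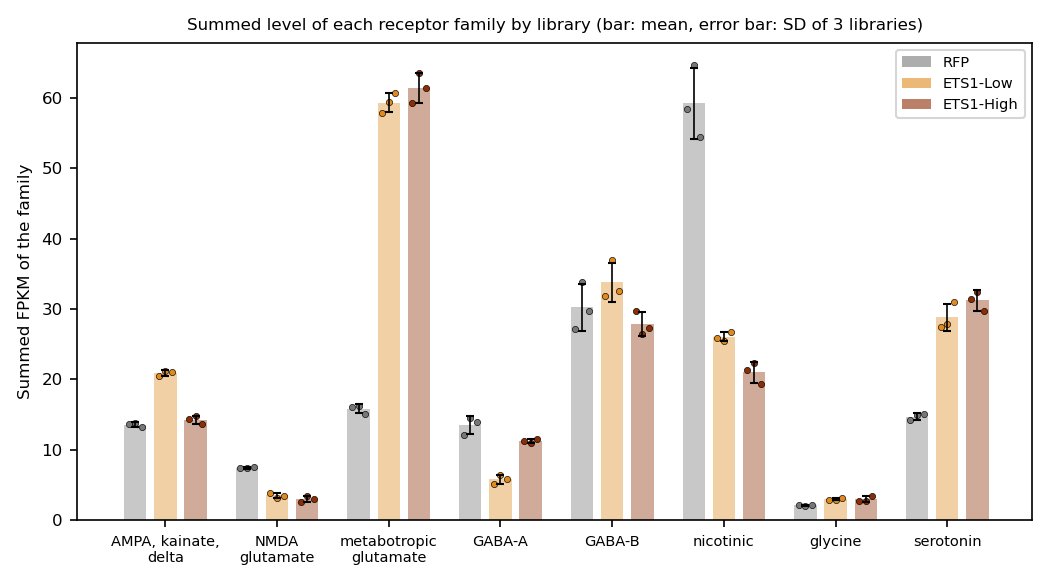
Summed FPKM of each receptor family by group, with bars for the mean, error bars for the SD and 1 point per library; the muscarinic family, at 0.177 FPKM or less in each group mean, is left out. Metabotropic glutamate receptors rise from 15.8 in RFP to 59.4 and 61.4 in ETS1-Low and ETS1-High, and nicotinic subunits fall from 59.2 to 26.1 and 21.0.

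Several subunits lie in gene clusters, and neighbours within a cluster did not always move together. On the X chromosome GABRE (151953124 to 151974680), GABRA3 and GABRQ lie in a row, 191553 and 186579 bases apart; in ETS1-High against RFP the outer pair moved in opposite directions and GABRA3 rose from near 0. On chromosome 4, GABRG1, GABRA2, GABRA4 and GABRB1 lie together, and GABRA2 was above its RFP level in ETS1-High while GABRB1 and GABRA4 were below theirs: GABRB1 had 0.717, 0 and 0.071 CPM in the RFP, ETS1-Low and ETS1-High groups, GABRA4 0.125, 0 and 0, and GABRG1 at most 0.017.

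To describe the surroundings of each subunit, the median log2 fold change of the tested genes within 10 Mb (mean log2 CPM above 1) was set beside its own. Around GABRA2 it was 0.00 for ETS1-High and -0.02 for ETS1-Low, each against RFP, and around CHRNA9 0.20 and -0.03. Around GABRA3 and GABRQ it was 0.16 and -0.38, around GRIK5 0.35 and 0.41, around GRIN2D 0.39 and 0.40, around GRIA1 -0.46 and -0.45, and around GABRB2 -0.40 and -0.43. For GLRB the regional medians of 0.54 and 0.42 were close to the gene's own 0.62 and 0.78. Around GABRE it was -0.38 in ETS1-Low against RFP, beside the gene's own -0.35, and 0.16 in ETS1-High, beside -1.04. For GABRA2, CHRNA9, GRIK5, GABRQ and GABRB2 the regional median was small beside the gene's own value. The part of the region was not tested for any subunit, and a median over this width does not describe a change confined to a few genes.

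**Figure D4:**
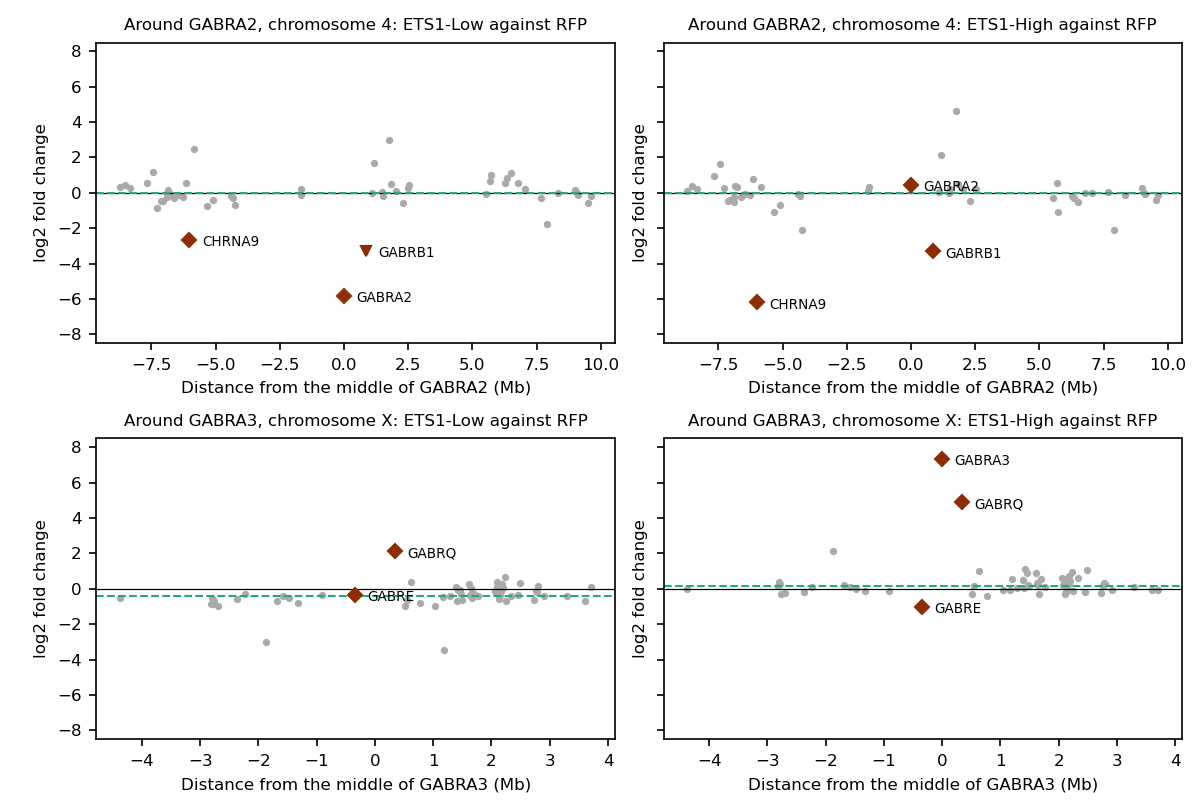
Log2 fold change of tested genes against the distance in Mb from the middle of GABRA2 (chromosome 4) and GABRA3 (chromosome X), for ETS1-Low and ETS1-High against RFP; grey points are other genes, diamonds receptor subunits, the dashed line is the median of the other genes, and the triangle marks GABRB1 at its bound. GABRA2 lies at -5.82 in ETS1-Low while its neighbours' median is near 0, and GABRA3 is not drawn in ETS1-Low, where both groups are at or under the floor.

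Genes whose products anchor receptors or modify their channels were counted in the same way. Of all genes, 74.2%, 74.1% and 59.2% passed in the 3 comparisons. In ETS1-High against RFP the GABA and glycine receptor list (75%) and the nicotinic list (80%) were close to the share of all genes. In ETS1-Low against RFP these lists stood at 87.5% and 80%. Between the ETS1 groups they stood at 87.5% (7 of 8) and 100% (5 of 5), above the 59.2% of all genes. Of 9 tested AMPA and kainate auxiliary subunit genes (of 13 listed), 9 passed in ETS1-High against RFP (4 higher and 5 lower), 9 in ETS1-Low against RFP (1 higher and 8 lower) and 7 between the ETS1 groups (5 and 2), with list medians of -0.53, -1.36 and 0.39 on the log2 scale. CACNG8 (TARP gamma-8, which traffics AMPA receptors) had means of 31.9, 4.51 and 0.365 CPM in the RFP, ETS1-Low and ETS1-High groups, and fell by 2.81 in ETS1-Low and by 6.44 in ETS1-High (edgeR adjusted p = 1.23e-26 and 3.78e-32). SHISA9, an AMPA receptor auxiliary subunit, had 22.4, 2.28 and 42.1 CPM, an ETS1-Low minimum like that of GABRA2, and SHISA6 had 88.5, 68.9 and 37.8 CPM. CACNG8 and SHISA6 fell in both ETS1 groups, whereas SHISA9 fell in ETS1-Low and rose in ETS1-High (edgeR adjusted p = 1.01e-38 and 7.68e-23).

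Of 12 tested glutamate receptor scaffold genes (of 13), 4 were higher and 7 lower in ETS1-High against RFP, and 4 and 7 in ETS1-Low, with list medians of -0.39 in both. HOMER2, which links metabotropic receptors to intracellular calcium stores, had means of 10.6, 51.0 and 27.3 CPM in the RFP, ETS1-Low and ETS1-High groups, SHANK1 47.4, 31.8 and 22.2, and GRIP1, which binds GluA2 and GluA3, 3.62, 0.0074 and 0.024. Of 8 tested GABA and glycine receptor scaffold and auxiliary genes (of 10), 1 was higher and 5 lower in ETS1-High and 1 and 6 in ETS1-Low, with medians of -0.47 and -0.69. KCTD16, an auxiliary subunit of the GABA-B receptor, had means of 53.9, 0.253 and 0.450 CPM, and fell by 7.73 in ETS1-Low and fell by 6.90 in ETS1-High on the log2 scale (edgeR adjusted p = 3.03e-47 and 3.51e-47). KCTD12, another GABA-B auxiliary subunit, had 83.7, 35.1 and 59.0 CPM. Of 5 tested nicotinic receptor chaperones and clustering factors (of 12), 2 were higher and 2 lower in each ETS1 group against RFP, with medians of 0.11 and -0.58: AGRN, the endplate organiser agrin, had 204.6, 282.8 and 262.6 CPM, LRP4, its receptor, 48.6, 56.1 and 52.5, and LYPD6, 2.27, 0.041 and 0.165.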

How the data were processed

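RNA-seq was done on 9 libraries of TC-32 cells, prepared with a stranded mRNA kit, per the labels' protocols. The deposited tables hold expected counts and FPKM per gene and library, made with RSEM, per the file names. The submitters' processing notes list cutadapt 4.4, STAR 2.7.3, featureCounts, Subread 2.0.3, limma 3.38.3 and GRCh38/hg38, with no roles. Between 9.00% and 10.3% of the expected counts were not whole, and all were rounded. Columns were matched to libraries by name, reading L and H as Low and High.

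Counts were filtered by expression in at least 3 libraries (filterByExpr, minimum count 10) and TMM-scaled. They were tested in 1 fit over all 9 libraries with the quasi-likelihood test of edgeR 4.0.16 in R 4.3.3. Benjamini-Hochberg adjustment ran over 17235 genes, with a threshold of 0.05. The test was also run on simulated counts with far fewer changed genes and the same spread for all genes. That run does not measure the error rate in these data. The receptor subunits and gene lists were chosen with earlier results of these data known. Subunits with a mean of at least 1 CPM in a group are named, and of each related list at most 3 genes, ranked by p in the comparison of ETS1-High with RFP. Counting intervals are exact binomial intervals at 95% on pooled counts, and they and the floor of 3 counts per library cover counting error only. Alternatives used other scaling, filters, DESeq2 1.42.0, limma 3.58.1 on log2 FPKM with pseudocounts of 1 or 0.1, each comparison's 2 groups alone, a replicate block and single libraries left out. Positions come from GENCODE (GRCh38). Values of a few single genes are not reported here.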

Additional observations from a re-analysis of the deposited data

Results flagged for a closer look

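The difference between the 2 ETS1 groups, each set against the same RFP libraries, passed the edgeR test for 15 of the 21 named receptor subunits, where 59.2% of all genes passed; clone and ETS1 level cannot be told apart in it. The log2 fold change of ETS1-High against ETS1-Low was largest for GABRA3 (7.17 as fitted, with few counts in ETS1-Low) and GABRA2 (6.28), followed by GABRQ (2.79), GRIK2 (2.02), GABRB2 (1.09), CHRNE (0.41), CHRNB1 (0.31) and GRIA3 (0.21) on the higher side. On the lower side it was -3.55 for CHRNA9, -1.60 for GRIA1, -0.93 for GRIK5, -0.73 for GRIN2D, -0.68 for GABRE, -0.30 for CHRNA5 and -0.29 for GABBR1. On FPKM values the CHRNA5 difference did not pass (-0.19 with a pseudocount of 1, limma adjusted p = 0.173, and -0.21 with 0.1, limma adjusted p = 0.228), nor did that of GRIA3 (0.052, limma adjusted p = 0.539, and 0.059, limma adjusted p = 0.587). The CHRNB1 difference did not pass either (0.22, limma adjusted p = 0.157, and 0.31, limma adjusted p = 0.184). That of GABRB2 did not pass with a pseudocount of 0.1 (0.56, limma adjusted p = 0.103). GABRA2 stands out because ETS1-Low fell far below RFP while ETS1-High lay slightly above it.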

How the results depend on the processing

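The counts of receptor subunits that passed (30, 30 and 24 in ETS1-High against RFP, ETS1-Low against RFP and ETS1-High against ETS1-Low) moved by over 1.5 times under a stricter filter and on FPKM with a pseudocount of 1. With a pseudocount of 0.1 only the count between the ETS1 groups moved that far. Requiring 10 counts in every library left 17 subunits, of which 14 (9 higher and 5 lower), 15 (10 and 5) and 12 (5 and 7) passed; the rule removes those near 0 in a group. With no filter, 37, 38 and 28 of 74 passed. On FPKM with a pseudocount of 1, 16 were tested and 13 (8 higher and 5 lower), 14 (8 and 6) and 8 (2 and 6) passed, and with 0.1, 30 were tested and 21 (11 and 10), 20 (10 and 10) and 14 (7 and 7) passed. The surplus of lower calls in ETS1-Low against RFP and of higher calls between the ETS1 groups was thus absent or turned in each of these except the unfiltered fit. The cause of the FPKM moves was not tested. With a pseudocount of 0.1 the median log2 difference of all genes was -0.11 in both comparisons with RFP, and the share of higher calls among all genes moved from 49.8% to 40.2% in ETS1-High and from 51.2% to 39.4% in ETS1-Low. DESeq2 passed 26, 30 and 23. Leaving out 1 library gave 28 to 32, 29 to 32 and 21 to 27. The fit with a replicate block passed 30, 30 and 24 and changed no call of a named subunit; same-numbered libraries did not deviate together (r from -0.0295 to 0.0276 over 9 pairs), so the numbers pair nothing.

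Of 1071 single-subunit values under alternatives, 1022 kept direction and call, 28 lost and 13 gained the call, and 8 turned direction, all of results that had not passed. GRIK2 in ETS1-Low against RFP (0.09) became -0.20 without RFP library 2, -0.26 and -0.036 without ETS1-Low library 1 and 2, and -0.025 on FPKM with a pseudocount of 0.1, with single libraries left out giving -0.26 to 0.48. GABBR1 in ETS1-High against RFP (0.05) became -0.0059 with upper-quartile scaling and -0.11 on FPKM with either pseudocount, and CHRNB1 there (-0.06) became 0.047 without RFP library 2; the cause was not tested. Depth limits the subunits under 1 CPM, where a group often held a few counts per library.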

Other observations

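Genes that make, break down or carry transmitters passed the test about as often as all genes in ETS1-High against RFP (77.8% of tested enzymes and 80% of tested transporters, beside 74.2%). In ETS1-Low against RFP 88.9% of the tested enzymes and 80% of the tested transporters passed, beside 74.1% of all genes. Between the ETS1 groups 66.7% of the enzymes (5 higher and 1 lower) and 80% of the transporters (2 and 2) passed, beside 59.2%. Of 9 tested synthesis and breakdown enzymes (of 14 listed), 4 were higher and 3 lower in ETS1-High against RFP, and 3 and 5 in ETS1-Low, with list medians of -0.13 and -0.62 on the log2 scale. BCHE, the esterase butyrylcholinesterase, had means of 4.25, 5.58 and 24.2 CPM in the RFP, ETS1-Low and ETS1-High groups and was higher in ETS1-High by 2.51 (edgeR adjusted p = 2.65e-34). ABAT, which breaks down GABA, had 9.25, 5.42 and 3.96 CPM.

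Of 17 listed transmitter transporters, 5 were tested, with 3 higher and 1 lower in ETS1-High and 2 and 2 in ETS1-Low, and medians of 0.10 and 0.16. The pair of glutamate uptake transporters moved in opposite directions. SLC1A3 (EAAT1) had means of 64.5, 16.4 and 6.54 CPM in the RFP, ETS1-Low and ETS1-High groups, with log2 fold changes of -1.97 and -3.29 (edgeR adjusted p = 6.77e-37 and 5.42e-44). SLC1A1 (EAAT3) had 20.2, 38.9 and 40.9 CPM, a rise of 0.95 and 1.02 (edgeR adjusted p = 1.82e-25 and 5.39e-27). SLC17A7, a vesicular glutamate transporter, stood at 1.60, 1.79 and 2.71 CPM.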
